A study of Homo sapiens with 9 samples.

Results

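FOXO1, FOXO3 and FOXO4 are forkhead transcription factors, and KLF2, TXNIP, CCNG2, SESN1, SESN3 and PIK3IP1 are genes that FOXO factors are known to switch on in resting cells. Their transcripts were followed in BL2, an established human Burkitt lymphoma line, on HG-U133 Plus 2.0 arrays. The genes were chosen by name, with earlier results of these data known. Every probe set that the platform annotation assigns to 1 of these 9 genes alone was kept, which gave 29 of the 54613 probe sets tested. SESN3 had 7 probe sets, CCNG2 had 5, FOXO3 had 4, FOXO1, TXNIP and PIK3IP1 had 3 each, KLF2 had 2, and FOXO4 and SESN1 had 1 each. BL2 cells had been stimulated for 6 hrs with 200 ng/ml CD40L, the T cell ligand of the B cell receptor CD40, or with 1 μM LPS, a glycolipid of bacterial membranes and ligand of a Toll-like receptor, or had been left untreated as the control. Each of 3 experimental batches gave 1 array for each condition, so there were 3 arrays per condition and 9 in all. All arrays came from a single cell line, so the p-values do not measure the spread between lymphomas. They rest on how far differences between conditions varied from batch to batch, a spread moderated over all probe sets.

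FOXO factors hold cells in a resting state by activating genes that slow the cell cycle, limit glucose uptake and restrain growth signalling. When a receptor activates PI3K, the kinase AKT phosphorylates FOXO proteins, which then leave the nucleus, and transcription of their targets drops. In germinal centre B cells FOXO1 is abundant and is required for the dark zone, where these cells divide. The arrays measured transcripts and hold no measure of FOXO phosphorylation or location. In separate assays of BL2 cells, the study reported Erk and PI3K signalling after stimulation of the antigen receptor. It stated that its other stimuli, CD40L and LPS among them, left these pathways unaffected. The part of PI3K and AKT in the changes described here was not tested.

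The promoters of TXNIP and CCNG2 are shown because these genes carried the largest changes among the 9. RefSeq (GRCh38.p14) gave 16 start sites for the 9 genes, and the 250 bases before each start were searched on both strands. The FOXO consensus GTAAACA was found in 1 of the 16 windows, that of TXNIP at chr1:145996580-145996829 on the minus strand, 124 to 118 bases before the start. The same letters occurred in 2.98% of 35116 promoter windows of this length. The variant CAAAACA was in 0 of the 16 windows and in 4.3% of all windows. A carbohydrate response element, 2 copies of CACGNG with 5 bases between them, searched with the TXNIP promoter known, lay 88 to 72 bases before the TXNIP start and occurred in 0.0456% of all windows. The palindromic E-box CACGTG lay 30 to 25 bases before the start of CCNG2 at chr4:77156957-77157206 on the plus strand and occurred in 6.34% of all windows. The matches did not overlap. They are letters in a window, not measured sites, and capitals mark them here, 5′ to 3′ along the gene:
TXNIP: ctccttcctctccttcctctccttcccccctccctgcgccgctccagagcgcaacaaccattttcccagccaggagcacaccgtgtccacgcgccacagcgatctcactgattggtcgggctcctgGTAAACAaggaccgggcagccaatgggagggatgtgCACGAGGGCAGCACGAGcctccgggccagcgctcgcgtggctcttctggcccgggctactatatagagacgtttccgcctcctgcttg
CCNG2: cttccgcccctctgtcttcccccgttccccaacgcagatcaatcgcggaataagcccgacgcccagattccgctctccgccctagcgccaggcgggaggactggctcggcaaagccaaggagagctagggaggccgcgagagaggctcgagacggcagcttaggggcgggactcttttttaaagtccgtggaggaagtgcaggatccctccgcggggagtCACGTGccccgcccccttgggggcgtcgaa

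The deposited levels are on a generalised log2 scale, on which differences of dim probe sets are understated. Levels ran from 5.46 to 14.8, array medians from 6.42 to 6.48, and arrays of the same condition correlated at 0.994 to 0.997 over all probe sets. The control array of batch 2 stood apart. On FOXO1 202723_s_at, described further on, it lay with the 3 arrays of batch 3, and 1190 other probe sets of the 3770 with a range over 0.5 (31.6%) separated the same 5 arrays above the same 4, while 160 separated them below. What set these arrays apart was not tested, and calls that changed without the control array of batch 2 are given with their values in that fit. The B cell genes MS4A1, CD79A, CD79B, CD22 and PAX5 averaged 10.54 to 10.59 on the CD40L arrays, 10.61 to 10.67 on the LPS arrays and 10.65 to 10.79 on the control arrays. T cell, NK cell and monocyte markers averaged 6.28 to 6.52 on the CD40L arrays, 6.30 to 6.50 on the LPS arrays and 6.34 to 6.53 on the control arrays, near the array medians. Fibroblast markers averaged 6.91 to 6.95, 6.92 to 7.02 and 6.92 to 7.02 on the same arrays in that order. Of the 5 B cell genes, CD79A (−0.45), CD22 (−0.45) and CD79B (−0.34) were called lower after CD40L and CD79A (−0.38) after LPS, while PAX5 stood at 0.39 and 0.31, not called. The part of these differences in the results was not tested.

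After CD40L, 10 of the 29 probe sets were lower than in control cells and 0 were higher, by limma's test with batch as a term and a Benjamini-Hochberg adjusted p of at most 0.05 over all 54613 probe sets, which is meant by called from here on. The lower probe sets belonged to CCNG2, TXNIP, FOXO3 and PIK3IP1. Over the whole array 1.87% of probe sets were lower and 3.71% higher. After LPS, 7 of the 29 were lower and 0 were higher, all of CCNG2 and TXNIP, against 0.892% lower and 1.17% higher over the whole array. The genes, and the lists further on, were chosen with earlier results of these data known. The shares over the array therefore give scale and are not a test of these genes. At an unadjusted p under 0.05, 0 of the 29 were higher and 11 lower after CD40L, and 1 was higher and 9 were lower after LPS. The share of all probe sets at this unadjusted level was not counted. The median log2 fold change of the 29 was −0.05 after CD40L and −0.07 after LPS, against 0.00 over all probe sets in both comparisons. Every CD40L array lay below every control array for 11 of the 29 probe sets, and 7.27% of all probe sets separated this way. For LPS this held for 9 of the 29, against 6.38% of all probe sets. In the other direction, all stimulated arrays above all controls, it was 1 of the 29 for CD40L and 1 for LPS, against 9.09% of all probe sets for CD40L and 3824 of the 54613 for LPS. Without the control array of batch 2, 9 probe sets were lower after CD40L and 8 after LPS. The whole array leaned toward higher calls, which made up 66.5% of the CD40L calls and 56.7% of the LPS calls. After quantile normalisation these shares were 50.2% and 47.1%, and the member counts stayed at 10 and 7.

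**Figure D1:**
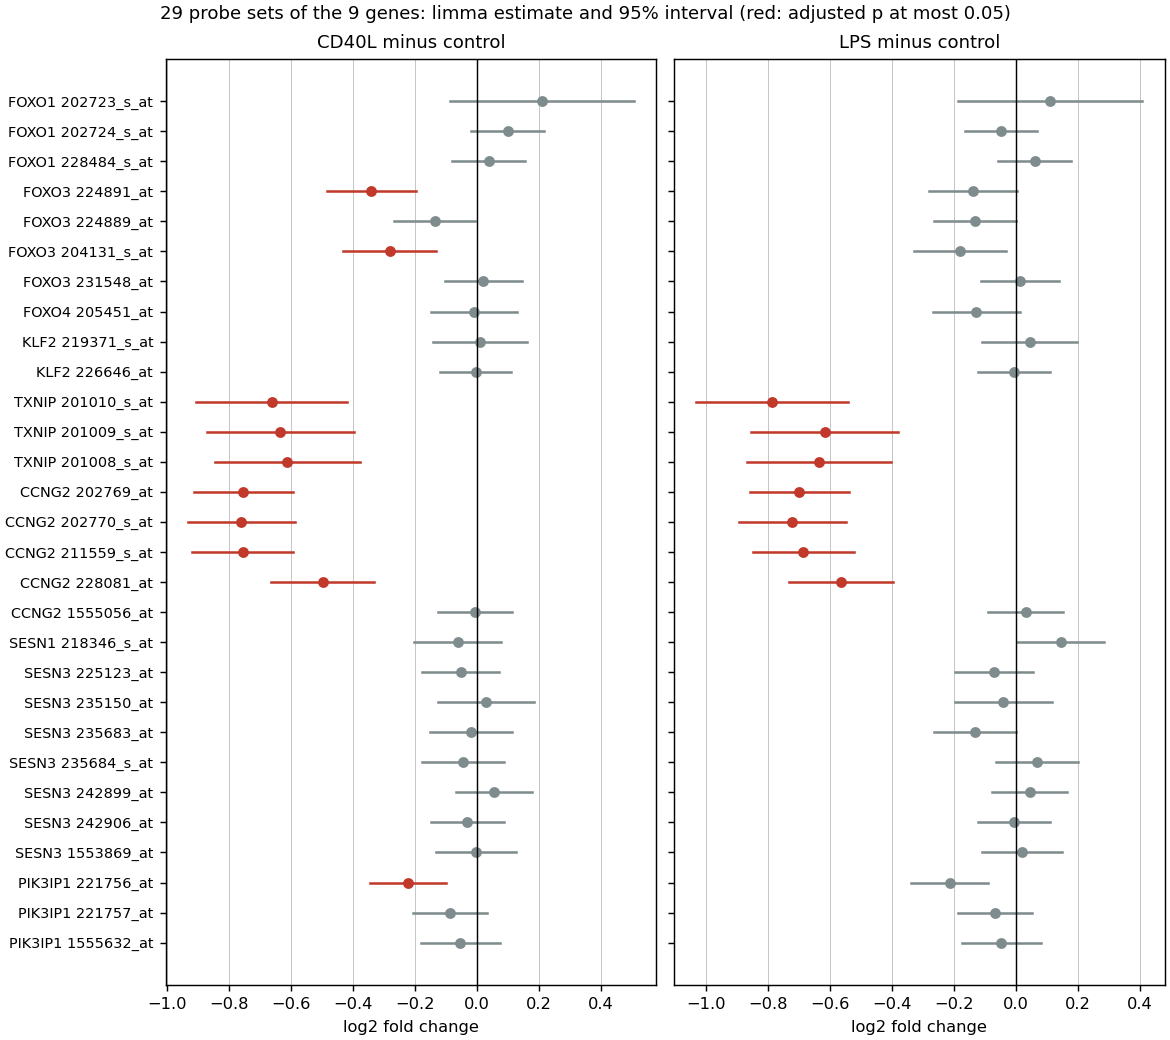
Log2 fold change (horizontal axis) with its 95% interval from limma for the 29 probe sets, CD40L minus control on the left and LPS minus control on the right, red where the adjusted p was at most 0.05. The 7 CCNG2 and TXNIP probe sets that fell after both stimuli lie between −0.50 and −0.79, and the other probe sets lie closer to 0.

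CCNG2 encodes cyclin G2, an unusual cyclin that is abundant in arrested cells and opposes division. It was lower after both stimuli. In a bulk culture such as this, fewer cells with the transcript and less of it per cell cannot be told apart. Probe set 202769_at had levels of 8.69, 9.01 and 8.67 on the CD40L arrays of batches 1 to 3, 8.94, 8.83 and 8.76 on the LPS arrays, and 9.44, 9.77 and 9.43 on the control arrays. All 6 stimulated arrays lay below all 3 control arrays, and the CD40L and LPS arrays overlapped. The log2 fold change was −0.76 ± 0.08 (SE) for CD40L, or 59.3% of the control level on this scale, with an adjusted p of 1.11e-05. On this probe set the CD40L change within batches was −0.75, −0.75 and −0.76. For LPS it was −0.70 ± 0.08 (adjusted p = 0.000146), 61.6% of control, with −0.50, −0.94 and −0.66 in batches 1 to 3.

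The other bright CCNG2 probe sets were also lower after both stimuli. The log2 fold changes of 202770_s_at and 211559_s_at were both −0.76 after CD40L, and −0.72 and −0.68 after LPS. Their CD40L changes varied between batches, at −0.61, −0.79 and −0.88 in batches 1 to 3 for 202770_s_at and −0.61, −0.73 and −0.93 for 211559_s_at. The dimmer 228081_at fell by 0.50 after CD40L and by 0.56 after LPS (adjusted p = 0.000948 and 0.00106). Levels of these 4 probe sets correlated at 0.897 to 0.995 over the 9 arrays. The fifth, 1555056_at, had a mean level of 6.56, close to the median of all probe sets at 6.45, and log2 fold changes of −0.01 and 0.03 that did not pass the test. Among all probe sets, 202770_s_at, 211559_s_at and 202769_at ranked 28, 29 and 30 from the lowest log2 fold change after CD40L, and 12, 16 and 14 after LPS. All 3 kept their calls under each of 20 alternative fits, the fit without the control array of batch 2 included. 228081_at lost its LPS call in the fit without batch 3 (adjusted p = 0.0613).

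TXNIP encodes an arrestin-like protein that binds thioredoxin and limits glucose uptake. Probe set 201010_s_at had levels of 8.18, 8.28 and 8.18 on the CD40L arrays, 8.01, 8.16 and 8.10 on the LPS arrays, and 9.28, 8.87 and 8.48 on the control arrays. The 6 stimulated arrays lay within 0.27 of each other, while the controls spread over 0.80, all of them above every stimulated array. The log2 fold change was −0.66 ± 0.11 (SE) after CD40L (adjusted p = 0.00206) and −0.79 ± 0.11 after LPS (adjusted p = 0.00153), or 63.1% and 58.0% of the control level. The size of the fall differed between batches. It was −1.10, −0.59 and −0.30 in batches 1, 2 and 3 for CD40L, and −1.27, −0.71 and −0.38 for LPS.

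The other TXNIP probe sets, 201009_s_at and 201008_s_at, followed the same course, with correlations between the 3 probe sets of 0.967 to 0.983. After CD40L their log2 fold changes were −0.64 and −0.61, and after LPS −0.62 and −0.63, all past the threshold. Without the control array of batch 1 the CD40L fall of 201010_s_at was −0.44 (adjusted p = 0.00438), that of 201009_s_at −0.41 and that of 201008_s_at −0.40, all 3 still called. That array also set much of the LPS estimate of 201009_s_at, which was −0.39 without it. Without batch 1 as a whole, the LPS changes of 201009_s_at and 201008_s_at were −0.40 and −0.43 and missed the threshold (adjusted p = 0.0564 and 0.0638). They also missed it without the LPS array of batch 1 (adjusted p = 0.121 and 0.0955), and 201009_s_at without that of batch 2 (adjusted p = 0.0502). 201010_s_at ranked 58 from the lowest log2 fold change after CD40L and 8 after LPS.

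**Figure D2:**
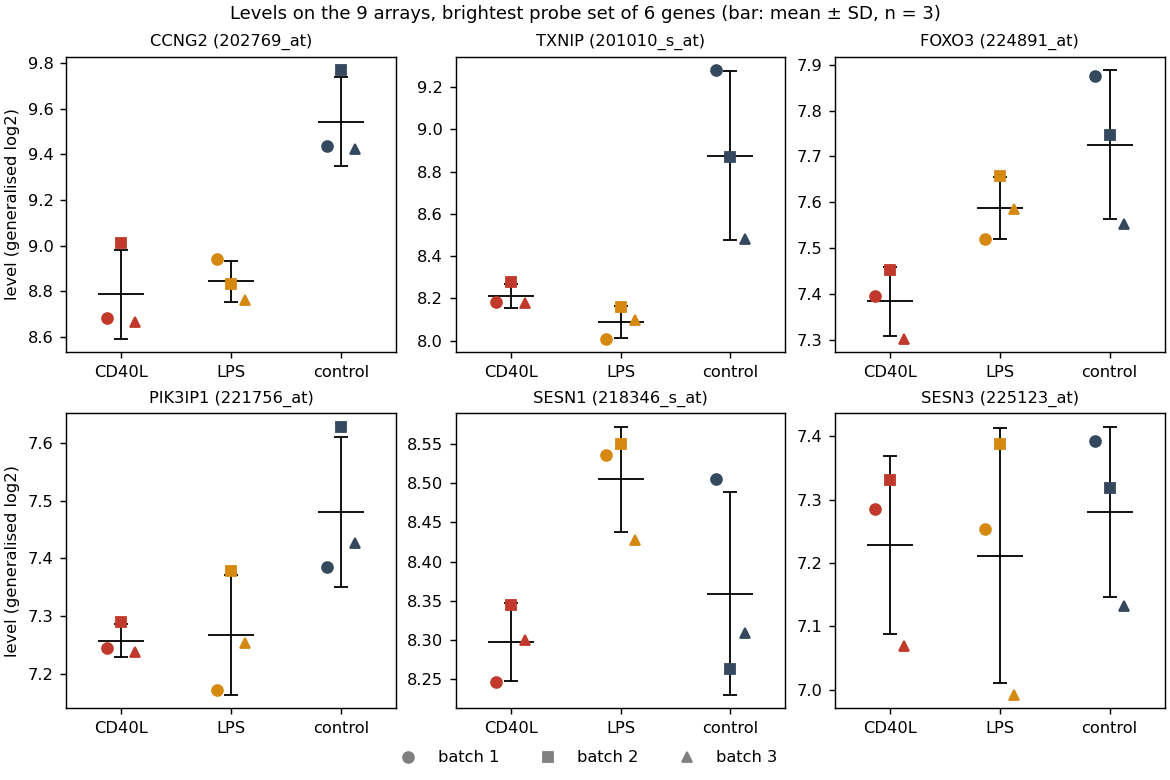
Level on the generalised log2 scale (vertical axis) on each CD40L, LPS and control array for the brightest probe set of CCNG2, TXNIP, FOXO3, PIK3IP1, SESN1 and SESN3, with symbols for the batches and bars for the mean and SD (n = 3). The stimulated arrays of CCNG2 and TXNIP lie below all their controls, and the TXNIP controls spread from 9.28 to 8.48 while the stimulated arrays stay between 8.01 and 8.28.

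FOXO3, the FOXO factor tied most closely to quiescence and stress resistance, was lower after CD40L on 2 of its 4 probe sets. On 224891_at the levels were 7.40, 7.45 and 7.30 on the CD40L arrays, 7.52, 7.66 and 7.58 on the LPS arrays, and 7.88, 7.75 and 7.55 on the control arrays. The CD40L arrays lay below all others, and the LPS arrays overlapped the controls. The log2 fold change after CD40L was −0.34 ± 0.07 (SE, adjusted p = 0.00558), or 79.0% of control, and lower in all 3 batches. After LPS it was −0.14 ± 0.07 and did not pass (adjusted p = 0.462, 95% interval −0.28 to 0.01). The direct difference, CD40L minus LPS, was −0.20 with a 95% interval of −0.35 to −0.06 before adjustment over the array and an adjusted p of 0.573, so a difference between the stimuli was not established.

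The second called FOXO3 probe set was 204131_s_at, at −0.28 ± 0.07 after CD40L (adjusted p = 0.025) and −0.18 ± 0.07 after LPS (adjusted p = 0.288). Its CD40L levels were 7.14, 7.06 and 6.76, its LPS levels 7.09, 7.20 and 6.98, and its control levels 7.42, 7.19 and 7.19. The CD40L arrays were the lowest on average and lay below every control array, while the LPS arrays overlapped both. Without the control array of batch 2 it was called after both stimuli, at −0.37 for CD40L (adjusted p = 0.000498) and −0.27 for LPS (adjusted p = 0.0304). 224889_at stood at −0.14 and −0.13 and 231548_at at 0.02 and 0.02, neither called. The call of 224891_at was lost without batch 1 (−0.27, adjusted p = 0.0983) and without the control array of batch 1 (−0.25, adjusted p = 0.0536). That of 204131_s_at was lost in 10 of 20 alternative fits, among them those without batch 1 or 3, without any 1 CD40L array, and without the control array of batch 1 or 3, where adjusted p ran from 0.0578 to 0.285. Another 3 probe sets match FOXO3 and FOXO3B together and were not members. They had CD40L changes of −0.18, −0.13 and −0.02 and did not pass.

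FOXO1, the main FOXO factor of B cells, passed the test on 0 of its 3 probe sets after either stimulus. On 202724_s_at the levels were 8.23, 8.30 and 8.20 on the CD40L arrays, 8.12, 8.10 and 8.07 on the LPS arrays, and 8.15, 8.13 and 8.14 on the control arrays. The CD40L arrays were highest and the LPS arrays lowest, within a total range of 0.23. The changes were 0.10 after CD40L (95% interval −0.02 to 0.22, adjusted p = 0.437) and −0.05 after LPS (95% interval −0.16 to 0.07, adjusted p = 0.867). CD40L minus LPS was 0.15, higher in all 3 batches, with an adjusted p of 0.777. The dim 228484_s_at, with a mean level of 6.15, had changes of 0.04 and 0.06, not called.

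FOXO1 202723_s_at behaved differently from its partner. It had levels of 8.69, 8.63 and 7.81 on the CD40L arrays, 8.56, 8.52 and 7.76 on the LPS arrays, and 8.81, 7.79 and 7.91 on the control arrays. The high arrays numbered 5, namely all of batch 1 and the stimulated arrays of batch 2, and 4 were low, with a gap of 0.62 between them that did not follow the condition. The correlation with 202724_s_at over the 9 arrays was 0.40. Its log2 fold changes were 0.21 ± 0.14 (SE) after CD40L and 0.11 ± 0.14 after LPS (adjusted p = 0.555 and 0.876). They rested on batch 2, where the CD40L difference was 0.84, against −0.11 in batch 1 and −0.09 in batch 3. Without the control array of batch 2 the changes were −0.10 and −0.20, neither called. PDPK1, the kinase that phosphorylates AKT, had a probe set with the same array pattern, 204524_at (correlation 0.985), while its 224986_s_at lay between 9.25 and 9.47 on all arrays (correlation 0.411). PDPK1 was singled out after the values were seen.

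**Figure D3:**
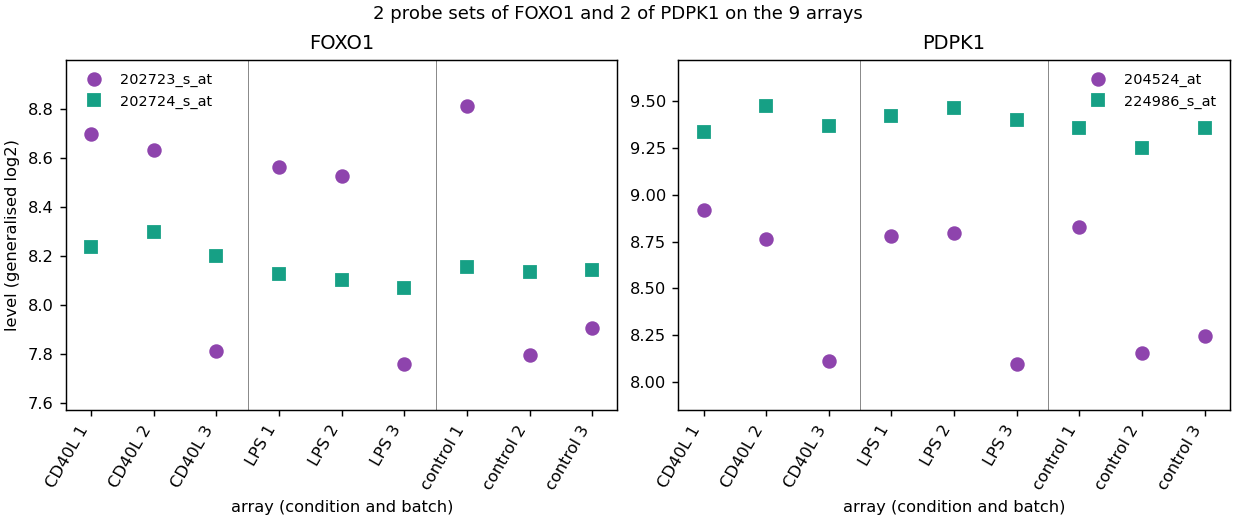
Level on the generalised log2 scale (vertical axis) on the 9 arrays, ordered CD40L, LPS, control with batches 1 to 3 in each, for 2 probe sets of FOXO1 on the left and 2 of PDPK1 on the right. FOXO1 202723_s_at and PDPK1 204524_at are low on the same 4 arrays, those of batch 3 and the control array of batch 2, while the other probe set of each gene varies little.

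FOXO4 and KLF2 were measured near the floor of the arrays. FOXO4 205451_at had a mean level of 6.50 and log2 fold changes of −0.01 after CD40L and −0.13 after LPS (adjusted p = 0.979 and 0.504). KLF2, a zinc finger factor that FOXO1 switches on in resting lymphocytes and that controls homing receptors, had mean levels of 6.59 on 219371_s_at and 6.32 on 226646_at. On 219371_s_at the log2 fold changes were 0.01 after CD40L and 0.04 after LPS, on 226646_at both were −0.00, and the adjusted p values were at least 0.912. So close to the floor, a change in KLF2 or FOXO4 is hard to detect. FOXO6, the remaining family member and not one of the 9 genes, stood at 0.05 after both stimuli on its only probe set and was not called.

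SESN1 and SESN3 encode sestrins, which bind the GATOR2 complex and thereby restrain mTORC1. SESN1 218346_s_at had levels of 8.25, 8.35 and 8.30 on the CD40L arrays, 8.54, 8.55 and 8.43 on the LPS arrays, and 8.51, 8.26 and 8.31 on the control arrays. The CD40L arrays all lay below the LPS arrays, and both groups overlapped the controls. The changes were −0.06 after CD40L (adjusted p = 0.773) and 0.15 ± 0.07 (SE) after LPS (95% interval 0.00 to 0.29, adjusted p = 0.409), and the LPS value was higher in all 3 batches. CD40L minus LPS was −0.21 (adjusted p = 0.506). SESN3 225123_at had levels of 7.28, 7.33 and 7.07 on the CD40L arrays, 7.25, 7.39 and 6.99 on the LPS arrays, and 7.39, 7.32 and 7.13 on the control arrays. The 3 conditions overlapped and batch 3 was the lowest in each, with changes of −0.05 and −0.07 that did not pass. The other 6 SESN3 probe sets had mean levels of 5.93 to 6.39, below the median of all probe sets, and 0 of them were called.

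PIK3IP1 encodes a membrane protein that inhibits the catalytic subunit of PI3K. On 221756_at its levels were 7.24, 7.29 and 7.24 on the CD40L arrays, 7.17, 7.38 and 7.25 on the LPS arrays, and 7.39, 7.63 and 7.43 on the control arrays. All 6 stimulated arrays lay below all controls, the LPS array of batch 2 only just. The change was −0.22 ± 0.06 (SE) after CD40L (adjusted p = 0.0329), 85.7% of control, and −0.21 ± 0.06 after LPS, which missed the threshold (adjusted p = 0.0801). The CD40L call was lost in 14 of 20 alternative fits, with adjusted p up to 0.243. Among these were the fits without any 1 of the batches, without the CD40L array of batch 2 or 3, without the LPS array of batch 1 or 3, and without any 1 control array, with −0.18 (adjusted p = 0.134) without that of batch 2. On 221757_at and 1555632_at the CD40L changes were −0.09 and −0.05 and the LPS changes −0.07 and −0.05, not called.

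Between the stimuli, CD40L minus LPS, 0 of the 29 probe sets were called in either direction, against 0.300% of all probe sets higher and 0.0952% lower. At an unadjusted p under 0.05, 1 was higher and 2 were lower, namely FOXO1 202724_s_at, FOXO3 224891_at and SESN1 218346_s_at. The share of all probe sets at this unadjusted level was not counted, so these 3 do not mark a difference between the stimuli. The arrays of the stimuli did not overlap for 3 probe sets with CD40L above and 2 with CD40L below, against 5.10% and 4.07% of all probe sets. For CCNG2 202769_at the difference was −0.06 (95% interval −0.22 to 0.10) and for TXNIP 201010_s_at it was 0.12 (95% interval −0.12 to 0.37). These intervals leave room for differences in either direction. The CD40L and LPS comparisons share the 3 control arrays, so a control that was high or low moved both.

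Over the 9 arrays, the brightest probe sets of CCNG2 and PIK3IP1 correlated at 0.852, those of TXNIP and CCNG2 at 0.805, those of FOXO3 and TXNIP at 0.767 and those of FOXO3 and CCNG2 at 0.706, points that share conditions and batches. Those of FOXO1 (202723_s_at) and SESN3 correlated at 0.750 and those of FOXO4 and SESN1 at −0.725. The other 30 of the 36 pairs lay between −0.378 and 0.680. FOXO1 202723_s_at carries the array split described above, which did not follow the condition, and correlated with FOXO1 202724_s_at at 0.40. How far that split set the value of 0.750 was not tested. FOXO4 205451_at lay near the floor, with a mean level of 6.50. The genes outside the 9 whose levels followed CCNG2 202770_s_at most closely were SAMD13 (correlation 0.993), MXI1 (0.983) and ARHGAP9 (0.980), out of 8842 genes with a mean level above 7. MXI1, an antagonist of MYC and itself a FOXO target, had log2 fold changes of −0.46 and −0.44. TXNIP 201010_s_at was followed most closely by RNF113A (0.963), GLIPR1 (0.960) and GPR18 (0.955), and SESN1 by WEE1 (0.926), LEMD3 (0.904) and CPEB4 (0.904). These likenesses describe 9 arrays and carry no test.

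Other FOXO target genes, 35 measured of 38 listed and each read on its brightest probe set, held 8 lower and 1 higher after CD40L, with a median of −0.05. Of all 19775 genes read this way, 2.92% were lower and 5.03% higher. After LPS 8 were lower and 2 higher, with a median of −0.08, against 1.48% lower and 1.62% higher over all genes. BNIP3, which drives mitophagy, averaged 9.43 on the CD40L arrays, 9.44 on the LPS arrays and 10.2 on the control arrays, with changes of −0.78 and −0.78. DDIT4, an mTORC1 inhibitor that also responds to hypoxia, changed by −0.71 and −0.83 and varied widely among arrays, from 8.74 to 10.6. The cell cycle repressor HBP1 was lower by both comparisons, at −0.49 and −0.47, as was MXI1. YPEL3 and IL7R, the interleukin 7 receptor chain, were lower after CD40L, both at −0.49, and after LPS, at −0.33 and −0.35. The 1 higher gene after CD40L was the homing receptor CCR7 (0.43, adjusted p = 0.00189), and the 2 higher after LPS were GADD45B (0.30) and PMAIP1 (0.26), named after their values were seen. For CD40L minus LPS by limma, CCR7 was the 1 gene higher (0.60, adjusted p = 0.000722) and PMAIP1 the 1 lower (−0.33, adjusted p = 0.0183). Over all genes 0.491% were higher and 0.152% lower between the stimuli. Of 20 alternative fits, 3 lost this CCR7 call and 8 this PMAIP1 call.

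These lists depended on single batches more than the CCNG2 result did. Over all alternatives, that with the probe set of largest change included, the count of lower targets ran from 5 to 12 after CD40L and from 1 to 10 after LPS. The LPS count of lower genes was 1 without batch 3, 4 without batch 1, 5, 3 and 4 without the LPS array of batch 1, 2 and 3, and 5 without the control array of batch 3. The 2 higher LPS genes were reduced to 1 or 0 without batch 1 or 3, without any 1 LPS array, without the CD40L array of batch 1 or 3, or without the control array of batch 1 or 3. BNIP3, YPEL3, IL7R and MXI1 kept their CD40L calls in all 20 alternative fits and MXI1 also its LPS call. DDIT4 lost its CD40L call in 8 and its LPS call in 9 of them, those without batch 3 included. HBP1 lost its LPS call without batch 3 or the LPS array of batch 2, and BNIP3 its LPS call without batch 3. YPEL3 and IL7R lost their LPS calls in 4 fits each, those without batch 1 or 3 included. CCR7 lost its CD40L call without batch 3. Without the batch term, CCR7 after CD40L, HBP1 after both stimuli and BNIP3 after LPS lost their calls too. With batch as a random effect, CCR7 after CD40L and HBP1 and BNIP3 after LPS were not called either.

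Genes of the PI3K and AKT pathway that lie upstream of FOXO, 20 measured of 27 listed, held 5 higher and 2 lower after CD40L, with a median of 0.08, against the 5.03% higher and 2.92% lower over all genes. PIK3CD, the PI3K catalytic subunit of leukocytes, averaged 10.6 on the CD40L arrays, 10.1 on the LPS arrays and 9.72 on the control arrays. It was higher by 0.86 ± 0.06 (SE) after CD40L (adjusted p = 2.21e-07) and by 0.35 ± 0.06 after LPS (adjusted p = 0.00384), and its CD40L minus LPS difference of 0.51 passed the test (adjusted p = 0.000341). SGK1, an AKT-like kinase that phosphorylates FOXO3, averaged 8.28 on the CD40L arrays, 7.68 on the LPS arrays and 7.68 on the control arrays, with 0.60 after CD40L (adjusted p = 0.0035) and 0.60 for CD40L minus LPS (adjusted p = 0.0227). INPP5D, a phosphatase that consumes the PI3K product, was higher by 0.50 after CD40L, and PIK3R1, the regulatory subunit, by 0.24.

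The other calls after CD40L were INPP4A (0.23), PIK3CG (−0.23) and RICTOR (−0.20), named after their values were seen. After LPS, PIK3CD was the 1 gene higher and PIK3CG (−0.26) the 1 lower, against 1.62% higher and 1.48% lower over all genes. For CD40L minus LPS, 2 genes were higher, PIK3CD and SGK1, and 0 lower, with 1 lower at an unadjusted p under 0.05. Over all genes 0.491% were called higher and 0.152% lower in that comparison, and the share at the unadjusted level was not counted. PIK3CD and INPP5D kept their CD40L calls in all 20 alternative fits. SGK1 lost its CD40L call without batch 3 or the CD40L array of batch 3, and PIK3R1, INPP4A, PIK3CG and RICTOR lost theirs in 11 to 15 of the 20. The count of 5 higher was 3 without batch 1 or without the CD40L array of batch 1 or 2, and 2 without batch 3 or the CD40L array of batch 3. After LPS, PIK3CD lost its call without batch 1, batch 3 or the LPS array of batch 2, and PIK3CG in 12 of the 20. The PIK3CD difference between the stimuli was lost without batch 3 (adjusted p = 0.0759). That of SGK1 was lost in 8 of the 20, with adjusted p up to 0.606, among them the fits without batch 3, without the CD40L array of batch 2 or 3, and without the LPS array of batch 1 or 3. Without the control array of batch 2, PIK3R1 (0.19, adjusted p = 0.125), PIK3CG (−0.18, adjusted p = 0.126) and RICTOR (−0.19, adjusted p = 0.122) were not called after CD40L, so that 0 genes were lower, and PIK3CG was not called after LPS (−0.22, adjusted p = 0.0797).

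**Figure D4:**
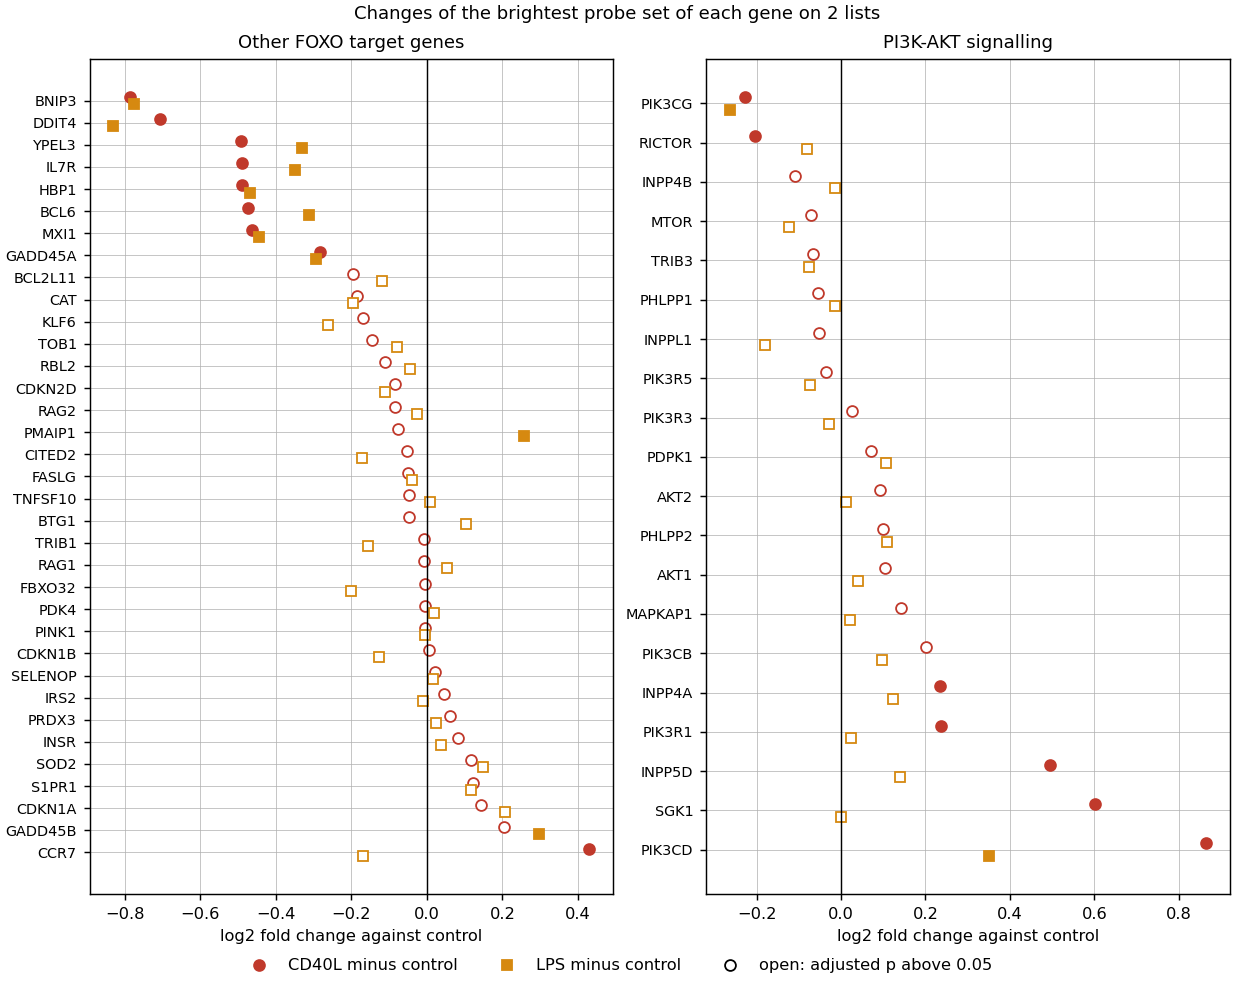
Log2 fold change against control (horizontal axis) of the brightest probe set of 35 other FOXO target genes on the left and 20 genes of PI3K-AKT signalling on the right, circles for CD40L and squares for LPS, filled where the adjusted p was at most 0.05. BNIP3 and DDIT4 lie lowest among the targets after both stimuli, and PIK3CD lies highest in the pathway at 0.86 after CD40L and 0.35 after LPS.

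Proteins that bind or modify FOXO factors, 24 measured of 24 listed, held 0 called genes after CD40L and 0 after LPS by limma, with 6 and 4 higher and 0 and 0 lower at an unadjusted p under 0.05. MondoA, MLX and the other alpha-arrestins, the partners and relatives of TXNIP, held 0 called of 7 in both comparisons, with 1 lower at an unadjusted p under 0.05 in each. In the thioredoxin system, 11 measured genes, the peroxiredoxin PRDX4 was higher after CD40L and LPS (0.32 and 0.29) and the glutaredoxin GLRX lower after CD40L (−0.21). Of 14 sestrin and GATOR complex genes, RRAGC was higher after CD40L (0.21) and SEH1L after LPS (0.28). In the KLF family of 16 measured genes, KLF12 was lower (−0.34) and KLF13 higher (0.41) after CD40L, and 0 were called after LPS, where 1 was higher and 3 lower at an unadjusted p under 0.05. Each of these calls was lost in at least 2 of the 20 alternative fits. Over all genes, 5.03% were called higher and 2.92% lower after CD40L, and 1.62% higher and 1.48% lower after LPS. Shares at the unadjusted level were not counted. Without the control array of batch 2, KLF13 stood at 0.18 (adjusted p = 0.173) and RRAGC at 0.16 (adjusted p = 0.205) after CD40L and SEH1L at 0.23 (adjusted p = 0.0958) after LPS, none of them called.

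Among 21 measured cell cycle brakes, 2 were lower after CD40L, HBP1 and the glucocorticoid-induced leucine zipper TSC22D3 (−0.37), and HBP1 alone after LPS. Over all genes, 2.92% were lower after CD40L and 1.48% after LPS. The FOXO targets CDKN1B and RBL2, which enforce arrest, stood at 0.01 and −0.11 after CD40L and were not called. Among 28 cell cycle drivers, the replication helicase genes MCM7 (0.27) and MCM3 (0.24) were higher after CD40L and MCM7 (0.23) after LPS. Shares of 2 in 28 and 1 in 28 are near the 5.03% and 1.62% of all genes called higher in these comparisons. TSC22D3 lost its call without batch 1 or 3, MCM7 its CD40L call without batch 1, batch 3 or the CD40L array of batch 1, MCM3 its call in 12, among them that without the control array of batch 2 (0.21, adjusted p = 0.0786), and MCM7 its LPS call in 15 of the 20 alternative fits. The CD40L calls of TSC22D3 and MCM7 were also lost without the batch term and with batch as a random effect.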

How the data were processed

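RNA of BL2 cells was hybridised to HG-U133 Plus 2.0 arrays, with 3 conditions in each of 3 batches. The authors corrected background and normalised probe intensities by variance stabilisation, used median polish to summarise each probe set, and deposited generalised log2 values, which were used as given. Levels near the floor understate changes, and precision is limited by how few arrays there are. Of 54675 probe sets, 62 AFFX controls were left out. The platform annotation names 1 gene for 41091 of those tested, several for 1801 and none for 11721. Symbols were updated through Entrez identifiers with a GRCh38.p14 gene table, and 0 changed.

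Log2 fold changes and p-values came from limma 3.58.1 in R 4.3.3 (lmFit, eBayes), in 1 model of all 9 arrays with terms for condition and for batch, with 4 residual and 11.6 prior degrees of freedom. Tests were two-sided, adjusted after Benjamini and Hochberg over all probe sets, with 0.05 as the threshold. The fit was tested on simulated data. Batch is a term because the study's methods include the experimental batches in their model and sample names carry batch numbers. Same-batch arrays had correlated deviations with a mean of 0.217, from −0.181 for CD40L and control of batch 2 to 0.466. No permutation test of 3 against 3 arrays can go below p = 0.1.

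The 9 genes and the lists were chosen with earlier results of these data known. All probe sets of the 9 genes are described. From each list up to 4 called genes of largest change are named, others as stated. For the probe set of largest change in each comparison, the 3 genes of most similar level are named. Alternatives were the fit without batch, batch as a random effect, only the 2 groups compared, quantile normalisation, median centring, dim probe sets left out, AFFX probe sets kept, eBayes with trend and robust, each batch and each array left out, and for lists the probe set of largest change. Promoters came from RefSeq tables, and no protein sequences were used.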

Additional observations from a re-analysis of the deposited data

How the results depend on the processing

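Under 20 alternative fits, 7 to 10 of the 29 probe sets were lower after CD40L (10 in the reported fit) and 5 to 8 after LPS (7 in the reported fit), and 0 were higher in either comparison or called between the stimuli in any of them. The fit without the batch as a block, in which arrays are not paired, gave 7 lower after CD40L and 5 after LPS. It lost the CD40L calls of FOXO3 204131_s_at, TXNIP 201009_s_at and PIK3IP1 221756_at, with adjusted p of 0.201, 0.0682 and 0.158, and the LPS calls of TXNIP 201009_s_at and 201008_s_at, with 0.162 and 0.0836. With batch as a random effect, both of these LPS calls of TXNIP were lost too, with adjusted p of 0.104 and 0.0544. Leaving out single batches or arrays gave 7 to 10 lower after CD40L and 5 to 8 after LPS. No fitted value of a called probe set of the 9 genes changed direction. In all, 37 of the single values lost their call and 2 gained one, both of them FOXO3 204131_s_at after LPS without batch 2 or its control array.

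Counts over the whole array moved more. Calls after CD40L were 812 to 2517 higher and 449 to 1694 lower (2027 and 1022 in the reported fit). LPS calls numbered 147 to 856 higher and 115 to 870 lower (637 and 487), and those between the stimuli 29 to 387 higher and 5 to 161 lower (164 and 52). The fit with no batch block called 884 higher and 562 lower for CD40L, 156 and 166 for LPS, and 64 and 9 between the stimuli. Among other FOXO target genes that fit called 5 lower after CD40L and 3 lower after LPS (8 and 8 in the reported fit), the random batch effect called 4 lower after LPS, and in PI3K-AKT signalling 3 genes were higher after CD40L (5 in the reported fit) without the block, with 2 groups only, with quantile normalisation and with trend and robust. The causes were not tested. Nearness to the floor limits FOXO4, KLF2, and 6 of the 7 SESN3 probe sets.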

Other observations

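Genes known to respond to p53, some of which FOXO factors also activate, were read on their brightest probe sets. Of 15 measured, 1 was higher and 4 were lower after CD40L, and 2 were higher and 3 lower after LPS. The shares over all genes were 5.03% (CD40L, higher), 2.92% (CD40L, lower), 1.62% (LPS, higher) and 1.48% (LPS, lower). The death receptor FAS averaged 7.51 on the CD40L arrays, 6.99 on the LPS arrays and 6.73 on the control arrays, a rise of 0.79 for CD40L by limma (adjusted p = 1.47e-06) and of 0.26 for LPS (adjusted p = 0.0474), and a CD40L minus LPS difference of 0.52 (adjusted p = 0.000745), which was lost without batch 3. TP53INP1, which promotes cell death and autophagy, averaged 8.92 on the CD40L arrays, 9.12 on the LPS arrays and 9.70 on the control arrays, with changes of −0.78 and −0.58 that were called in all 20 alternative fits. The FAS call after CD40L also held in all 20, and that after LPS was lost in 14, among them that without the control array of batch 2 (0.20, adjusted p = 0.161). RRM2B, XPC and GADD45A were lower after CD40L, at −0.35, −0.22 and −0.28, and XPC and GADD45A also after LPS, at −0.32 and −0.29. The count of 4 lower genes after CD40L was 1 without batch 1, batch 3 or the CD40L array of either. It was 2 without the control array of batch 1, without the batch term and with only the groups compared. The 3 lower after LPS were 1 without batch 1 or 3.

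BCL6, CD38 and MME, markers of germinal centre B cells, were lower after CD40L, all 3 of them, and so they were after LPS. Over all genes, 2.92% were lower after CD40L and 1.48% after LPS. The mean level of the 3 markers ran from 9.82 to 9.86 on the CD40L arrays, 9.99 to 10.11 on the LPS arrays and 10.36 to 10.42 on the control arrays. The groups did not overlap. Of all probe sets read singly, 7.27% lay wholly below control after CD40L and 6.38% after LPS. For CD40L wholly below LPS it was 4.07%. The count of 3 lower after LPS was 0 without the batch term, batch 1, batch 3 or the LPS array of batch 2, and 1 without the LPS array of batch 1 or 3. BCL6, the repressor that maintains the germinal centre state, changed by −0.47 after CD40L and −0.31 after LPS. BCL6 is also on the list of other FOXO target genes, and GADD45A and PMAIP1 are on that list and the p53 list. The counts of these lists are therefore not independent. Among 6 measured homing genes under KLF2 control, CCR7 was higher after CD40L and S1PR4 lower after LPS (−0.25). Over all genes, 5.03% were higher after CD40L and 1.48% lower after LPS. The S1PR4 call was lost in 16 of 20 alternative fits, among them that without the control array of batch 2 (−0.21, adjusted p = 0.135).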
